A study of Rattus norvegicus with 12 samples.

Results

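The genes described are Ppara, the nuclear receptor that senses fatty acids, and 5 of its classic targets in fat oxidation: Pdk4, Angptl4, Acadm, Cpt1a and Cpt2. They were chosen by name, as every probe set whose only gene symbol on the platform was 1 of these 6. These 6 of the 13810 genes with a probe set of their own gave 8 probe sets, 7 on the rat array 230A and 1 on 230B, of 31142 in all after controls were left out. Transcripts were measured in scrapings of the jejunal mucosa of rats, with a week number of 12 in every title. A high Fe group was compared with a low Fe group, each with 3 samples that were each run on both arrays. The labels name iron deficiency and anemia as keywords for the 230A samples. They give no diet composition, strain, sex or age, and do not say what the 12 weeks count or whether a sample is 1 animal or a pool. The p-values thus rest on how much these samples vary, and that variation may be technical.

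Peroxisome proliferator-activated receptors bind fatty acids and, paired with retinoid X receptors, switch on genes that take up, transport and burn fat. Long-chain fatty acids enter mitochondria through the carnitine shuttle, in which Cpt1a on the outer membrane makes acylcarnitines and Cpt2 on the inner membrane turns them back into acyl-CoA. Acadm then carries out the first step of beta-oxidation of medium-chain acyl-CoA. Pdk4 phosphorylates and so restrains pyruvate dehydrogenase, which spares glucose when fat is burned. Angptl4 is a secreted inhibitor of lipoprotein lipase. The jejunal epithelium handles large amounts of dietary fat, and Ppara target genes are known to respond to fatty acids there.

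None of the 7 member probe sets that could be tested passed the threshold between low Fe and high Fe mucosa. The brighter measure of Pdk4, the one on 230B, was 2.32-fold higher in high Fe than in low Fe samples, and Angptl4 and Acadm were 1.47-fold and 1.26-fold higher in high Fe. In these 3 probe sets every low Fe sample lay below every high Fe sample, as in 6.12% of all tested probe sets on 230A and 10.3% on 230B. Under each of 3 other scalings only Pdk4 on 230B still did. There the share over all probe sets was 0.158% to 5.23% on 230A and 1.07% to 7.55% on 230B. Cpt1a, Cpt2 and the dimmer Pdk4 probe set, the one on 230A, overlapped between the groups, and Ppara itself was too dim to test. In scraped tissue, fewer cells of a type and less RNA per cell cannot be told apart.

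As a check of the labels, transcripts for iron import were read first. Slc11a2, the apical iron transporter, Cybrd1, a ferric reductase, and Tfrc, the transferrin receptor, all passed adjusted p 0.05 as higher in low Fe, with log2 differences of 2.19, 3.91 and 2.74. Dimmer probe sets gave 1.73 for Slc11a2 and 1.67 for Tfrc, both higher in low Fe without overlap. These did not pass the threshold (limma adjusted p = 0.0905 and 0.495). Of 13 enterocyte markers 11 were tested, among them Vil1, a microvillus protein, and Alpi, intestinal alkaline phosphatase. The summed signal of the 9 on 230A ran from 64139 to 96096 in high Fe and from 70114 to 83397 in low Fe. That of the 2 on 230B, Vil1 included, ran from 68269 to 89754 and from 67535 to 75294. Both sums thus overlapped between the groups. A log2 difference is low Fe minus high Fe on the scale of log2(signal + 16), which understates changes of dim genes, and it is given with its SE. Adjusted p-values come from limma with Benjamini-Hochberg adjustment over all tested probe sets of the array type. Over all tested probe sets, 0.0945% on 230A and 0% on 230B passed adjusted p 0.05, and 0.0105% on 230A passed as lower in low Fe.

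**Figure D1:**
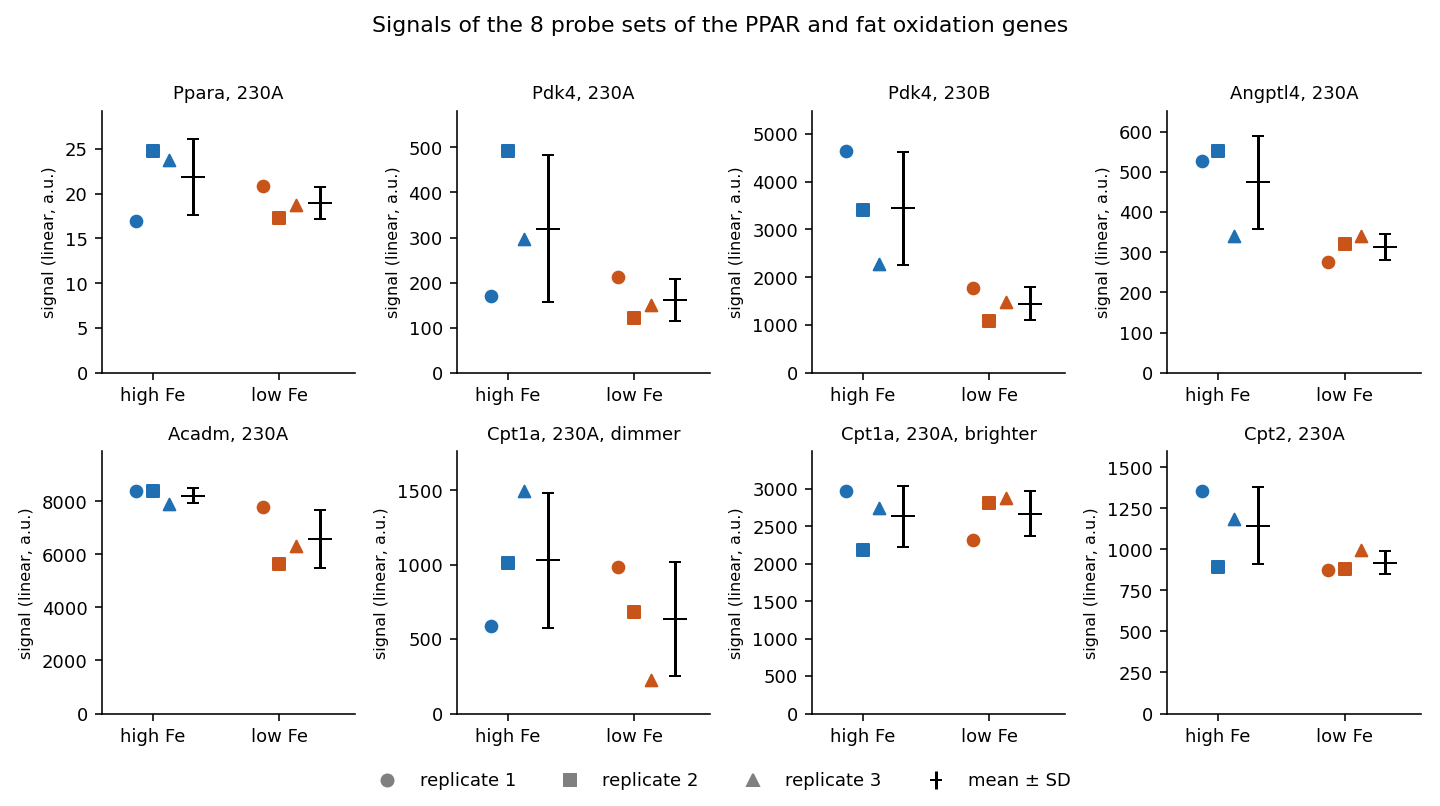
Signal of each of the 8 member probe sets (linear, arbitrary units, each panel with its own axis from 0) for each iron group, where the symbol gives the replicate number and mean ± SD (n = 3) in black. Low Fe samples lie below all high Fe samples for Pdk4 on 230B, Angptl4 and Acadm, and the groups overlap in the other 5 panels.

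Ppara was measured by 1 probe set on 230A. Its signals were 17.0, 24.8 and 23.8 in high Fe replicates 1, 2 and 3, and 20.8, 17.3 and 18.7 in low Fe replicates 1, 2 and 3. The groups overlapped, and only 11.3% of the probe sets of the array were dimmer. The probe set lay below the filter boundary, a signal of 109, and was left out of the main test. Without a filter its log2 difference was -0.11 ± 0.17 (limma adjusted p = 0.924). At this brightness no level or change of Ppara can be read from these arrays.

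The related receptors Ppard and Pparg passed the filter on their own probe sets. Signals are not compared between probe sets, so these values do not rank the receptors by level. Ppard, which shares many targets with Ppara in the gut, read 2231, 1165 and 1836 in high Fe and 2088, 2412 and 2304 in low Fe. The groups overlapped, with a log2 difference of 0.42 ± 0.22 (limma adjusted p = 0.767). Pparg, best known from fat cells, read 232.5, 196.3 and 336.1 in high Fe and 259.9, 192.9 and 182.5 in low Fe, again with overlap.

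Pdk4 had the largest difference among the members. On 230B its signals were 4645, 3407 and 2277 in high Fe replicates 1, 2 and 3, against 1776.5, 1080 and 1483 in low Fe replicates 1, 2 and 3. The highest low Fe sample lay 22.0% below the lowest high Fe sample. The difference did not pass the threshold. The mean signal was 3443 ± 1185 (SD, n = 3) in high Fe and 1446 ± 350 (SD, n = 3) in low Fe, a log2 difference of -1.21 ± 0.29 (95% interval -1.86 to -0.56, limma adjusted p = 0.390). By unadjusted p it ranked 54th of 9163 tested probe sets on 230B. A two-sided exact permutation test of this probe set gave p = 0.1, the smallest that 3 against 3 samples allow. Without any 1 sample the log2 difference ran from -1.48 to -0.97, with limma adjusted p from 0.322 to 0.829.

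A dimmer Pdk4 probe set on 230A did not order the samples in the same way. It read 170.0, 492.6 and 296.0 in high Fe replicates 1, 2 and 3 and 211.6, 121.9 and 150 in low Fe. Here the groups overlapped, since high Fe replicate 1, the highest sample for the 230B probe set, was the lowest of its group and lay below low Fe replicate 1. The means were 319.5 ± 162.6 and 161.2 ± 45.9 (SD, n = 3 each), with a log2 difference of -0.83 ± 0.35 (limma adjusted p = 0.734). This value was -0.47 without high Fe replicate 2 and -1.20 without high Fe replicate 1.

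**Figure D2:**
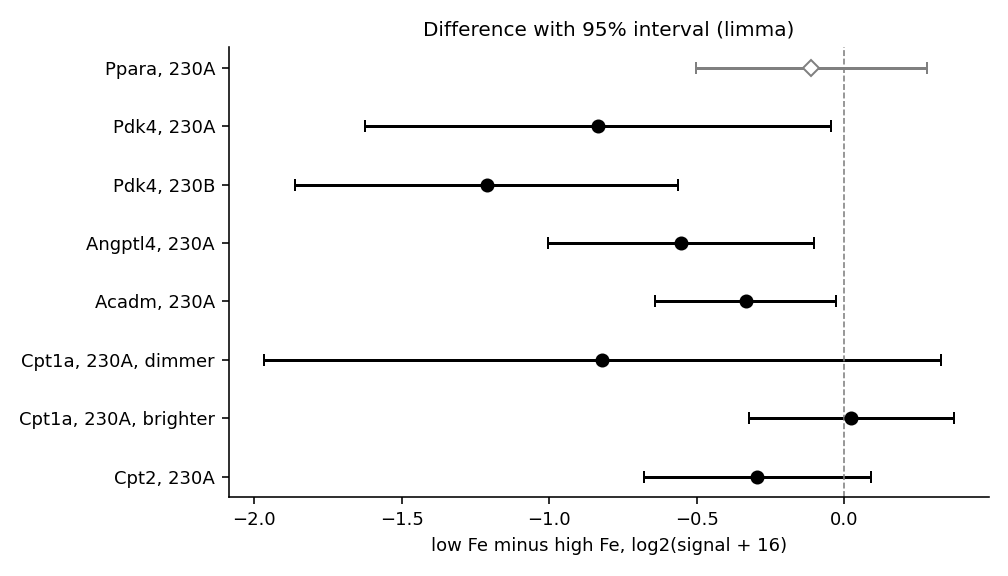
Low Fe minus high Fe difference on the log2(signal + 16) scale for each member probe set, with its 95% interval from limma (n = 3 per group; filled circles from the main fit, the open diamond for Ppara from the fit without a filter). The Pdk4 (230A and 230B), Angptl4 and Acadm intervals lie below 0, and those of Cpt1a, Cpt2 and Ppara include 0; the intervals are not adjusted for the number of probe sets tested.

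Angptl4 read 527.6, 552.6 and 341.5 in high Fe and 276.1, 320.7 and 339.9 in low Fe. The groups did not overlap, but high Fe replicate 3 and low Fe replicate 3 were only 1.6 signal units apart, so this separation is far smaller than the spread between replicates. The means were 473.9 ± 115.3 and 312.2 ± 32.7 (SD, n = 3 each), with a log2 difference of -0.55 ± 0.20 (limma adjusted p = 0.694).

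Acadm, the medium-chain acyl-CoA dehydrogenase, read 8372.5, 8368 and 7891 in high Fe and 7767.5, 5622 and 6324.5 in low Fe. The high Fe samples were close together, and low Fe replicate 1 lay 1.56% below the lowest of them. The means were 8210 ± 277 and 6571 ± 1094 (SD, n = 3 each), with a log2 difference of -0.33 ± 0.13 (95% interval -0.64 to -0.03, limma adjusted p = 0.721). Leaving out low Fe replicate 1 gave -0.46, and leaving out low Fe replicate 2 gave -0.23.

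Cpt1a, the rate-limiting enzyme of the carnitine shuttle, had a pair of probe sets on 230A that disagreed. The brighter one read 2965, 2183 and 2748.5 in high Fe and 2321, 2803.5 and 2882 in low Fe, with overlap and a log2 difference of 0.03 ± 0.15 (95% interval -0.32 to 0.37, limma adjusted p = 0.981). The dimmer one read 587.2, 1011 and 1492 in high Fe and 986.8, 684.6 and 226.0 in low Fe, also with overlap. Its log2 difference was -0.82 ± 0.51 (95% interval -1.97 to 0.33, limma adjusted p = 0.786), and -0.22 without low Fe replicate 3. The mean of both probe sets gave -0.40.

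Cpt2 read 1353, 890.2 and 1184 in high Fe and 871.7, 882.5 and 997.2 in low Fe. The groups overlapped, since high Fe replicate 2 lay below low Fe replicate 3. The log2 difference was -0.29 ± 0.17 (95% interval -0.68 to 0.09, limma adjusted p = 0.780), which leaves room for a fall as large as that of Angptl4.

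Counted over the tested members, 6 of 7 probe sets had a log2 difference below 0, with a median of -0.55. Over all tested probe sets the share below 0 was 53.2% on 230A and 54.9% on 230B, with medians of -0.02 and -0.04. By limma 0 of 7 passed adjusted p 0.05 and 4 had an unadjusted p under 0.05, all lower in low Fe: Pdk4 on both arrays, Angptl4 and Acadm. That unadjusted rule took 3.55% of all probe sets on 230A and 5.34% on 230B. Low Fe lay below high Fe without overlap in 2 of 6 tested member probe sets on 230A, where 6.12% of all did so, and in the single one on 230B, where 10.3% did. The members were named with earlier results of these data in view, so these counts describe them and are no test. The count of 3 without overlap was 5 without high Fe replicate 1, where 15.1% of 230A and 18.3% of 230B probe sets qualified. It was 1, Pdk4 on 230B, after scaling the arrays to a common median, after quantile normalization and after scaling to the hybridization controls. In that order, the share over all tested probe sets was 3.46%, 5.23% and 0.158% on 230A. On 230B it was 4.965%, 7.55% and 1.07%, so separation also became rarer over all probe sets.

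Signs of RNA and target quality differed between samples, and some member probe sets moved with them. The ratio of the 5' to the 3' actin control probe sets was 0.0539 on 230A and 0.0473 on 230B in low Fe replicate 3, against 0.499 to 0.896 on every other array. Low Fe replicate 3 was also by far the lowest sample for the dimmer Cpt1a probe set, at 226.0. Without it the log2 differences were -0.22 for that probe set, -0.03 for the brighter one, -0.35 for Cpt2, -1.24 for Pdk4 on 230B, -0.61 for Angptl4 and -0.31 for Acadm. The ratio of the 5' to the 3' GAPDH control probe sets on 230A was 0.794 to 0.811 in a lower set of 3 samples, made of low Fe replicates 2 and 3 with high Fe replicate 1, and 0.876 to 0.922 in the higher set of the other samples. The dimmer Cpt1a probe set read 226.0 to 684.6 in the lower set and 986.8 to 1492 in the higher set. The brighter Cpt1a probe set went the opposite way, with 2803.5 to 2965 in the lower set and 2183 to 2748.5 in the higher set. The dimmer Pdk4 probe set read 121.9 to 170.0 in the lower set and 211.6 to 492.6 in the higher set. Of all tested 230A probe sets, 12.1% lay lower without overlap in the lower set and 9.4% higher, against 9.04% and 8.28% on 230B. The sets were cut at the largest gap between the sorted 230A ratios, not at a quality limit set beforehand. The 230B arrays were placed in these sets by the 230A ratios of their samples. On 230B itself the ratio of low Fe replicate 3, in the lower set, was 0.873. That lay next to 0.877 for low Fe replicate 1, in the higher set, and above 0.821 and 0.831 for the rest of the lower set. The sets are thus less distinct on 230B. The bright Pdk4 probe set on 230B, Angptl4, Acadm and Cpt2 overlapped between these sets. The part of RNA quality in the member values was not tested beyond these values.

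**Figure D3:**
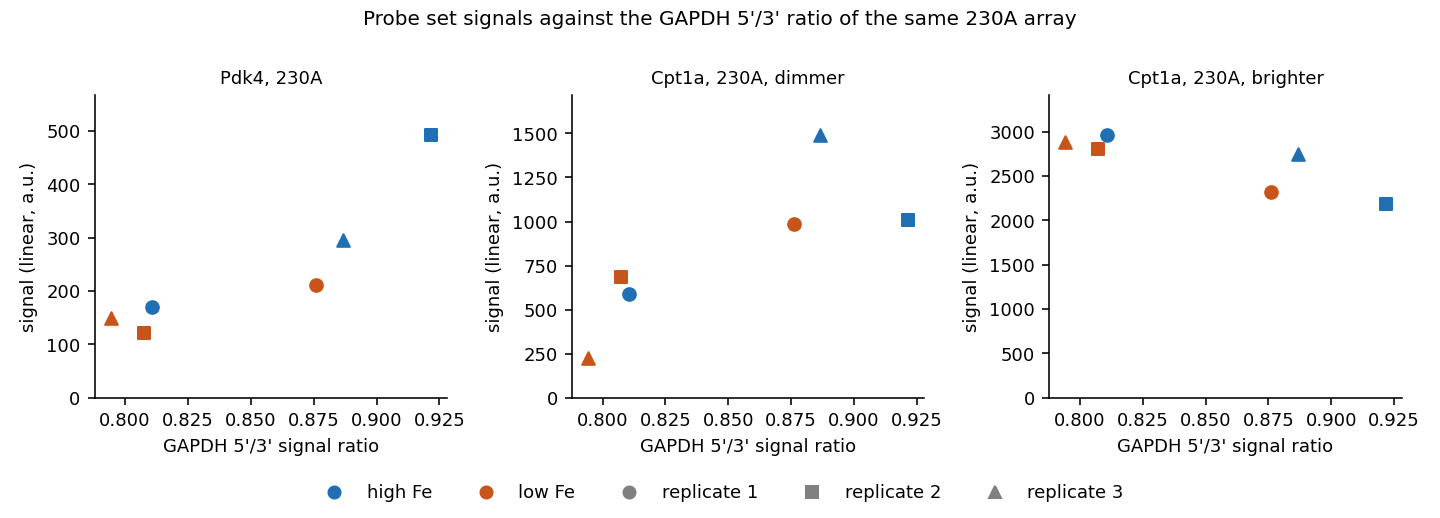
Signal (linear, arbitrary units) of the dimmer Pdk4 probe set and both Cpt1a probe sets on 230A against the ratio of 5' to 3' GAPDH control signals of the same array, 1 point per sample, coloured by iron group with the replicate as the symbol. The samples at ratios of 0.794 to 0.811 read lower than those at 0.876 to 0.922 for Pdk4 and the dimmer Cpt1a probe set, and higher for the brighter Cpt1a probe set.

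Each of these sets has an iron group of only 1 sample, so the values within them have no test and are given as a description. The log2 difference of the bright Pdk4 probe set was -1.86 in the lower set and -0.64 in the higher set. Angptl4 gave -0.65 and -0.63. Acadm gave -0.49 and -0.06, and so differed little in the higher set. For the dimmer Cpt1a probe set the values were -0.55 and -0.31, and for Cpt2 -0.52 and -0.23.

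Of the 5 tested markers of fat cells, which can come along with a mucosal scraping, 3 lay lower in low Fe without overlap. Over all tested probe sets 6.12% on 230A and 10.3% on 230B did so. The remaining markers, Cidec and Lipe, overlapped. Adipoq, the adipocyte hormone adiponectin, read 489.1, 1778 and 502.2 in high Fe and 362.5, 357.4 and 248.7 in low Fe. Fabp4, the adipocyte fatty acid binding protein, read 112.9, 635.8 and 101.0 against 65.4, 69.7 and 36.7, and Cfd, adipsin, 151.4, 408.5 and 131.9 against 103.2, 101.2 and 95. In all 3 high Fe replicate 2 was far above the rest, while none passed adjusted p 0.05 (limma, 0.451, 0.710 and 0.714). High Fe replicate 2 was also the highest sample for Angptl4 and for the dimmer Pdk4 probe set, but not for the bright Pdk4 probe set.

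Cidec, a lipid droplet protein, had a higher mean in low Fe, with 4503.5, 4775 and 3210 in high Fe and 5625, 3343 and 6650 in low Fe (0.28 ± 0.27), and Lipe, hormone-sensitive lipase, gave -0.08 ± 0.16. The whole list has 8 markers, and the defining markers Plin1 and Lep lay under the filter boundary. The summed signal of Fabp4, Cfd and Lipe on 230A was 993 to 1754 in high Fe and 850.3 to 972 in low Fe. That of Adipoq and Cidec on 230B was 3712.5 to 6553 and 3700 to 6899. Smooth muscle markers on 230A went the other way, with 5 of 8 tested and a sum of 3329 to 4021 in high Fe and 4343 to 5636 in low Fe. Most of that sum was Mylk, at 2899, 2436 and 2926 in high Fe and 3391, 4013 and 3730 in low Fe. Of the rest, Des and Smtn lay higher in low Fe without overlap, and Acta2 and Myh11 overlapped. Over all tested 230A probe sets 5.61% lay higher without overlap. Tested probe sets on 230B gave 0.09 ± 0.42 for Mylk and 0.41 ± 0.53 for Des, both with overlap. Without high Fe replicate 2 the log2 differences were -1.19 for Pdk4 on 230B, -0.43 for Angptl4 and -0.32 for Acadm. The part of other cell types in these values was not tested beyond this.

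**Figure D4:**
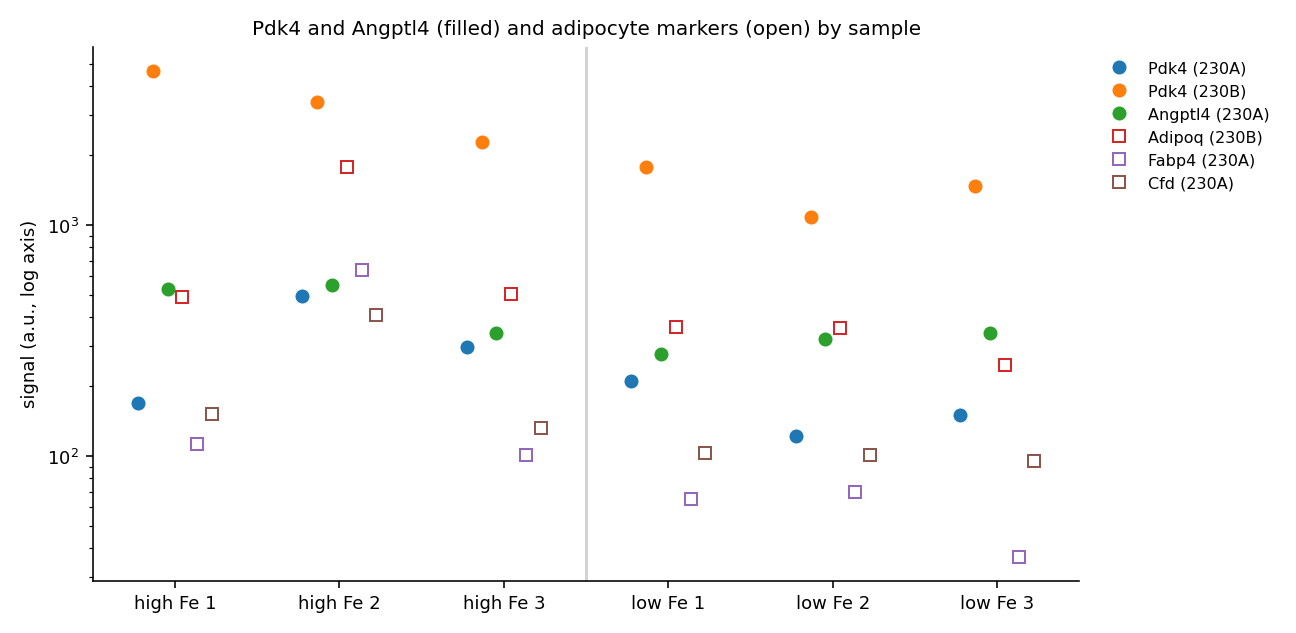
Signals by sample (arbitrary units, log axis) of Pdk4 and Angptl4 (filled circles) and of the adipocyte markers Adipoq, Fabp4 and Cfd (open squares), with the array type in the legend. The markers peak in high Fe replicate 2, at 1778, 635.8 and 408.5, whereas Pdk4 on 230B is highest in high Fe replicate 1, at 4645.

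The rest of the pathway was read from 9 lists of 163 genes, of which 118 had a tested probe set of their own, 27 lay under the filter and 18 had none. No listed gene passed adjusted p 0.05 in either direction by limma, and 17 had an unadjusted p under 0.05, a rule that took 6.72% of all probe sets on 230A and 10.3% on 230B. Without overlap between the groups, 22 genes lay lower and 6 higher in low Fe. Of all probe sets, 6.12% on 230A and 10.3% on 230B lay lower without overlap, and 5.61% and 7.17% lay higher. Of the 118, 83 (70.3%) had a log2 difference below 0 and 35 above, with a median of -0.14. Over all tested probe sets the share below 0 was 53.2% on 230A and 54.9% on 230B. The count below 0 was 74 of 118 after scaling to a common median, where the shares were 40.3% and 39.8%. It was 82 of 118 after quantile normalization, where they were 48.4% and 49.2%. With arrays set to their hybridization controls the direction reversed, and 24 of 117 listed genes (20.5%) lay below 0. So did only 11.2% of all tested probe sets on 230A and 29.8% on 230B. There the median of all probe sets was 0.29 on 230A and 0.19 on 230B. These controls were brightest in high Fe replicate 2, with a mean log2 signal of 9.92 on 230A and 11.66 on 230B. All remaining samples had 8.87 to 9.13 and 10.93 to 11.17. The part of this sample in the reversal was not tested. Relative to the median of their array type, 81 of 118 lay lower as deposited and 80 of 117 under hybridization control scaling. The directions of lists given here are those of the deposited scaling. Each gene was read from 1 probe set, and the 49 other tested probe sets of these genes were more evenly split. Of these, 28 lay below 0 and 21 above, with 3 lower and 10 higher in low Fe without overlap. Over all 167 tested probe sets 66.5% lay below 0, and 0 passed adjusted p 0.05 by limma.

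Among the other enzymes of mitochondrial beta-oxidation, 18 of 24 lay below 0 (median -0.14) with 7 lower and 3 higher in low Fe without overlap (over all probe sets, 6.12% and 5.61% on 230A, 10.3% and 7.17% on 230B). The smallest unadjusted p was that of Slc25a20, the carnitine-acylcarnitine translocase that works between Cpt1a and Cpt2. It read 1519, 1443 and 1605 in high Fe and 1324.5, 1103 and 1108 in low Fe, without overlap (log2 difference -0.37 ± 0.13, limma adjusted p = 0.686). Acadl, the long-chain dehydrogenase, gave -0.31 ± 0.13 with overlap. Echs1, the enoyl-CoA hydratase of the next step, was higher in low Fe, with 1500.5, 1451 and 1296 against 1579, 2000 and 2047 (0.39 ± 0.14, limma adjusted p = 0.694). Hadha, the trifunctional protein subunit, named after its values were seen, gave 0.07 ± 0.10 on 230A, and its probe sets on 230B gave -0.41 ± 0.28 and 0.40 ± 0.50, none of them past the threshold.

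For peroxisomal and microsomal oxidation, 11 of 15 tested genes lay below 0 (median -0.11), among them the microsomal Cyp4a3 at -0.21 ± 0.50, while the microsomal Cyp4a1 gave 0.15 ± 0.16; both were named after their values were seen. Crot, which makes carnitine esters of shortened fatty acids for export to mitochondria, read 397.0, 475.1 and 481.7 in high Fe and 335.2, 225.7 and 307.7 in low Fe, without overlap (-0.63 ± 0.18, limma adjusted p = 0.564). Its dimmer probe sets gave -0.46 ± 0.23 on 230A and 0.07 ± 0.59 on 230B. Pex11a, a peroxisome division factor, gave -0.43 ± 0.16 and Decr2, a reductase for unsaturated fatty acids, -0.37 ± 0.14, both without overlap. Ehhadh, the bifunctional enzyme that is a classic Ppara target, gave 0.01 ± 0.13 and was named after its values were seen.

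**Figure D5:**
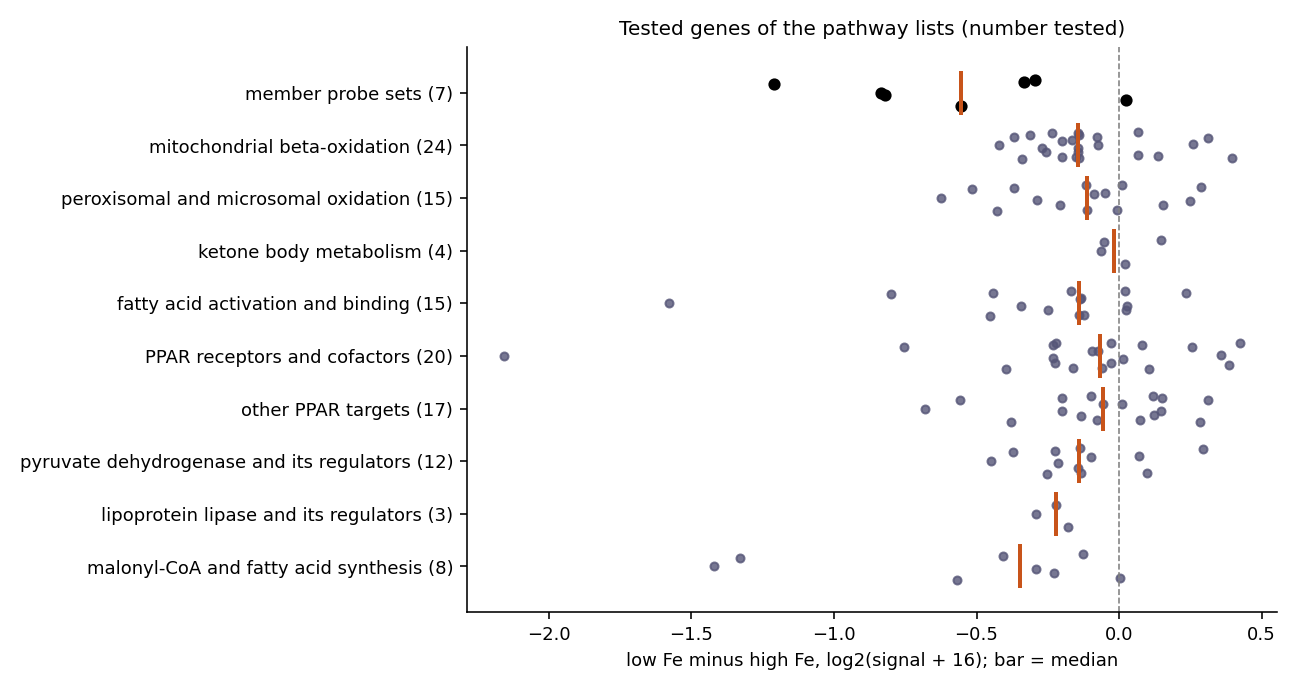
Low Fe minus high Fe differences on the log2(signal + 16) scale, 1 point per tested gene of each list (number tested in parentheses; a gene can be in more than 1 list) and per tested member probe set in the top row, with the median as a bar. The member median is -0.55, and the list medians lie between -0.35 for malonyl-CoA and fatty acid synthesis and -0.02 for ketone body metabolism.

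Other known targets of the receptors were split, with 9 of 17 below 0 and a median of -0.06. Gpd1, the cytosolic glycerol-3-phosphate dehydrogenase, read 7517.5, 7854 and 7824 in high Fe and 5836, 5755 and 6228 in low Fe (-0.38 ± 0.10, limma adjusted p = 0.540), and its dimmer probe set gave -1.91 ± 0.93 with overlap. Vnn1, a pantetheinase induced by Ppara, read 2128, 1831 and 1806.5 against 1593, 1093.5 and 1252 (-0.56 ± 0.16, limma adjusted p = 0.589). Aqp3, a glycerol channel, gave -0.68 ± 0.22 with overlap. Plin2, the lipid droplet coat protein, gave -0.13 ± 0.14, and Ucp2, a mitochondrial carrier, lay higher in low Fe without overlap at 0.31 ± 0.14; a dimmer Plin2 probe set gave -0.52 ± 0.19, and Plin2 and Ucp2 were named after their values were seen.

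Genes of fatty acid activation and binding had 11 of 15 values below 0 (median -0.14). Beside Fabp4, the smallest p belonged to Cd36, a fatty acid receptor of the brush border (-0.44 ± 0.22), and Acot12, an acetyl-CoA thioesterase (-0.80 ± 0.46), both with overlap. Cd36 lay lower without overlap in the samples of lower GAPDH ratio, at 1359 to 1736.5 against 2230 to 2671. Of the 105 listed genes read on 230A, 13 lay lower and 5 higher in these samples without overlap. Over all tested 230A probe sets 12.1% and 9.4% did so, so single genes that follow the GAPDH ratio sets do not set the lists apart. Among ketone body genes 2 of 4 lay below 0 (median -0.02), with 0.15 ± 0.13 for Oxct1, -0.06 ± 0.11 for Acat1 and -0.05 ± 0.12 for Bdh1. Other probe sets had the opposite sign, with 0.61 ± 0.25 for Acat1 on 230B, higher in low Fe without overlap, and 0.18 ± 0.18 for Bdh1, so no direction can be read for either gene.

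Of 12 tested genes of pyruvate dehydrogenase and its regulators, 9 lay below 0, with a median of -0.14. Pdk1, a sister kinase that is also a target of hypoxia-inducible factors, read 274.9, 238.8 and 295.4 in high Fe and 341.8, 296.5 and 365.3 in low Fe. Its log2 difference was 0.30 ± 0.15 (limma adjusted p = 0.767), with no overlap between the groups, against -1.21 for Pdk4 on 230B. Dld, a subunit of the complex, gave -0.25 ± 0.14 and Pdp2, a phosphatase that reactivates it, -0.45 ± 0.26. Both Dld and Pdp2 lay lower without overlap in the samples of lower GAPDH ratio, as did 12.1% of all tested 230A probe sets. Other probe sets gave 0.54 ± 0.18 for Pdk1, and -0.28 ± 0.20 and -1.92 ± 0.86 for Pdp2.

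For the Angptl4 system, Lpl itself lay under the filter, as did 5 others of the 10 listed genes. The 3 tested ones gave -0.29 ± 0.23 for Angptl6, -0.22 ± 0.21 for Sel1l and -0.18 ± 0.17 for Apoc2, the activator of lipoprotein lipase. A Sel1l probe set on 230B gave the opposite sign, 0.39 ± 0.16, higher in low Fe without overlap, and the one on 230A followed the GAPDH ratio sets. Genes of malonyl-CoA and fatty acid synthesis, whose product malonyl-CoA inhibits Cpt1a, had 7 of 8 values below 0 (median -0.35). Thrsp, a lipogenic factor, and Scd, the stearoyl-CoA desaturase, read highest in high Fe replicate 2, at 742.7 and 1074, where the fat cell markers also peaked. Their log2 differences were -1.42 ± 0.50 and -1.33 ± 0.62 (limma adjusted p = 0.686 and 0.755), and that of Srebf1, the regulator of these genes, -0.57 ± 0.14 (0.495). Other probe sets gave -1.49 ± 0.58 for Thrsp and -0.48 ± 0.23 for Srebf1.

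Receptor partners and cofactors had 13 of 20 values below 0 (median -0.07), and none of these 20 probe sets lay apart between the groups. Of 15 other probe sets of these genes 4 did, all higher in low Fe and none past adjusted p 0.05 by limma, with 0.56 ± 0.16 for Ppargc1a, 0.59 ± 0.26 for Crebbp, 0.46 ± 0.18 for Ncoa1 and 0.33 ± 0.15 for Ncor1, which are coregulators named after their values were seen. Prkaa2, a catalytic subunit of AMP-activated kinase, had the largest difference of the lists at -2.16 ± 0.78 (limma adjusted p = 0.703). It read 25.3, 310.6 and 318.7 in high Fe and 54.9, 9.7 and 11.9 in low Fe, so high Fe replicate 1 lay among the low Fe samples and the values followed the GAPDH ratio sets without overlap, at 9.7 to 25.3 against 54.9 to 318.7. Rxra, the partner receptor, read 43.3, 189.6 and 229.4 against 275.4, 64 and 40.3, which also followed these sets without overlap, as did Ppard in the opposite direction. Ncoa3, a coactivator, gave 0.39 ± 0.20, and Ppargc1a, the coactivator of oxidative metabolism, 0.36 ± 0.20 on its brighter probe set on 230B. Rxra and Ppargc1a were named after their values were seen.

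The promoters of Pdk4 and Acadm are shown as examples of members that lay lower in low Fe, picked after their values were seen. Angptl4 also lay lower, and its window is not printed. RefSeq windows of all 6 members were cut in the same way, before the annotated gene start. Each line holds the 250 bases before the start, 5′ to 3′ on the gene's minus strand of GRCr8, from chr4:34568330-34568579 for Pdk4 and chr2:245542865-245543114 for Acadm. Capitals mark exact matches to AGGTCA, the core hexamer that receptors of the PPAR and RXR type bind as a repeat, GGGTCA, a variant of it, TGACGTCA, the cyclic AMP response element, and GGGCGG, the GC box bound by Sp1, on either strand.
Pdk4: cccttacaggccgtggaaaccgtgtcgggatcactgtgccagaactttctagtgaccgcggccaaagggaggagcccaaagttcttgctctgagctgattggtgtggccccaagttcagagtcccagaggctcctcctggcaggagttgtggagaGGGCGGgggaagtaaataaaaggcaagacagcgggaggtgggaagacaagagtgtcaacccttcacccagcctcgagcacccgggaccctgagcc
Acadm: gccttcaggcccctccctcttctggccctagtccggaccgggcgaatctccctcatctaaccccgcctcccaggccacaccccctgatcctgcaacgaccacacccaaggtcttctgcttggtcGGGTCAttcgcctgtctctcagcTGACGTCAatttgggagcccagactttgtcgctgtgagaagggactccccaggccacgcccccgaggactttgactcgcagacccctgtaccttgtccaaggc
AGGTCA was in none of the 6 member windows and in 14.1% of 33469 rat windows of this length. GGGTCA was found in Acadm alone of the members, 126 to 121 bases before the start, and in 11.9% of all windows. TGACGTCA was found in Acadm alone, 103 to 96 bases before the start, and in 1.59% of all. GGGCGG was in the windows of Pdk4, Angptl4, Cpt2 and Ppara and in 30.5% of all. These matches describe letters in short windows, and sites farther away or with other letters were not searched.

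As a last description, the probe sets most like each member over the 6 samples were taken by Pearson correlation of log2(signal + 16), given with no test. Most like Pdk4 on 230B, of 5004 compared, were Pnpla3, a lipid droplet hydrolase, Dapl1 and Them7 (r = 0.977, 0.977 and 0.975, with log2 differences of -0.49, -1.46 and -0.31). For Angptl4 on 230A, of 8037 compared, they were Lrrc51, Cul4a and Paxbp1 (r = 0.989, 0.986 and 0.984). Acadm was most like Pdzph1, Tusc2 and Hbp1 (r = 0.991, 0.989 and 0.989), the dimmer Pdk4 probe set most like Lpcat3, Slc1a3 and Rida (r = 0.996, 0.992 and 0.992). The brighter Cpt1a probe set was most like Hip1r, Hacd2 and Dag1 (r = 0.992, 0.990 and 0.990) and Cpt2 most like Brk1, Derl1 and Sumf1 (r = 0.995, 0.985 and 0.971). No gene was on more than 1 of these short lists.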

How the data were processed

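Each sample was hybridized to Affymetrix rat arrays 230A and 230B. The authors deposited 1 linear intensity per probe set and array. Their values have the same mean on every array once the top and bottom 2% are trimmed (500.1 on 230A, 500.2 on 230B), so a shift common to most transcripts is removed. Software: not given in the sources used here. The 230A arrays had medians between 154 and 176 and the 230B arrays between 259.5 and 302.6, and the few arrays limit the precision. Signals are compared within a probe set only.

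Groups and replicate numbers come from the titles. Gene names come from the platform annotation, updated by Entrez identifier to RefSeq (GRCr8), which 12748 of 12783 probe sets with 1 symbol on 230A and 7524 of 7564 on 230B matched. After 57 controls per type were left out, the dimmest 40% by mean signal were dropped, which left 9519 and 9163. Low Fe was compared with high Fe on log2(signal + 16), with a pseudocount of 16, in limma 3.58.1 (R 4.3.3; lmFit, eBayes with trend), separately by array type, with Benjamini-Hochberg adjustment and a threshold of 0.05. The steps were tested on simulated data.

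Named are all member probe sets, up to 3 genes per list with the smallest unadjusted p, the 3 probe sets most like each member, and genes said to be chosen after their values were seen. A list gene is represented by its brightest tested probe set on 230A, or else on 230B. The members, lists and tests were chosen with earlier results of these data known. Alternatives were pseudocounts of 1 and 64, no filter or 60% left out, other scalings, eBayes with no trend or robust, blocks by replicate number or GAPDH ratio, each sample left out, the mean of a gene's probe sets and a threshold of 0.1.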

Additional observations from a re-analysis of the deposited data

How the results depend on the processing

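None of the member probe sets and none of the listed pathway genes passed adjusted p 0.05 under any alternative. The count of all 230A probe sets past the threshold was 9, and it was 29 with arrays scaled to hybridization controls, 15 at a threshold of 0.1 and 5 to 21 with 1 sample left out (21 without low Fe replicate 1, 5 without low Fe replicate 2). On 230B it was 0, and 1 under that scaling. With the replicate number as a replicate block it was 4 on 230A; deviations of same-numbered arrays from their group means correlated at -0.37 to -0.15 on 230A and -0.28 to -0.10 on 230B, which gave no sign of pairing. The log2 differences of Pdk4, Angptl4, Acadm and the dimmer Cpt1a probe set stayed below 0 in all alternatives that tested them (the dimmer Pdk4 probe set is not tested with 60% left out), at -1.48 to -0.97 for Pdk4 on 230B. That of Cpt2 was 0.023 with arrays scaled to hybridization controls. That of the brighter Cpt1a probe set was -0.069 with the GAPDH ratio as a block and ran from -0.10 to 0.12 with 1 sample left out. Counts added after the data were seen were the members lower without overlap (3, but 1 after scaling to a common median, quantile normalization or the hybridization controls, and 3 to 5 with 1 sample left out) and the pathway genes below 0 (83, but 24 under hybridization control scaling, and 78 to 84 with 1 sample left out; 111 of 167 with every tested probe set). Under those 3 scalings, 0.158% to 5.23% of all 230A probe sets and 1.07% to 7.55% of all 230B ones lay lower without overlap. The pathway genes below 0 were 74 of 118 after scaling to a common median and 82 of 118 after quantile normalization. The share of all tested probe sets below 0 was 53.2% on 230A and 54.9% on 230B as deposited. It was 40.3% and 39.8% with a common median, 48.4% and 49.2% after quantile normalization, and 11.2% and 29.8% with hybridization controls. The causes were not tested.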
